A study of Mus musculus with 24 samples.

Results

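Inguinal white fat (iWAT), the fat pad under the skin of the groin, was compared between mice on a high-fat diet (HFD) and mice on chow, all of them C57BL6 mice given an adeno-associated virus (AAV) that carries green fluorescent protein (GFP). The comparison has 3 libraries of GFP mice on HFD and 3 of GFP mice on chow, after 18 weeks of feeding, out of 24 libraries in the series. It covers the 14847 of 54532 genes in the deposited table that reached 0.5 FPKM (fragments per kilobase of gene, scaled to the size of the library) in at least 3 of these 6 libraries, 12267 of them protein coding. Values of 4 further groups of 3 libraries are set beside it where they bear on a gene: iWAT of mice given AAV for irisin, a hormone, on HFD and on chow, and epididymal fat (eWAT), the fat pad in the abdomen, of GFP mice on HFD and on chow. Every mouse behind these libraries carried a viral vector, so the diet effect without any virus was not measured, and the labels do not give sex, age, the promoter of the vector or the tissue it entered. Nor is it stated that each library of a group is a different mouse, and p-values therefore describe the spread among these libraries, which may be technical.

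White adipocytes store triglyceride in a single large droplet and signal the size of that store to the body by secreted proteins such as leptin. On a fat-rich diet the cells enlarge, new adipocytes form from stromal progenitors, and immune cells and vessels in the pad change. Adipocytes can also make fatty acids and cholesterol themselves, and both routes are known to be set by the supply of lipid in the cell.

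The 6 libraries held 16.2 M to 19.7 M gene reads, a median of 17.1 M. Adipocyte transcripts dominated all of them: Adipoq, the gene for the hormone adiponectin, was at 841, 1676 and 1788 FPKM in the HFD libraries 1 to 3 and at 1568, 1805 and 1699 FPKM in the chow libraries 1 to 3. Plin1, which coats the lipid droplet, ranged from 337 to 678 FPKM in HFD and from 480.1 to 817 FPKM in chow libraries. One library stood apart. HFD 1 held the lowest Adipoq and Plin1 of the 6 and 145 FPKM of Cd79a, a chain of the B cell receptor, against 0.487 and 5.19 FPKM in HFD 2 and 3 and 0.527 to 0.896 FPKM on chow. The T and natural killer cell markers of HFD 1 summed to 269.8 FPKM, against 17.2 to 30.1 FPKM in the other HFD libraries and 7.93 to 22.8 FPKM on chow. Chow 3 was the lowest of the 6 for summed macrophage markers, at 403 FPKM, against 972 to 1399.5 FPKM on HFD and 2387 and 2659 FPKM in chow 2 and 1. Below, the adjusted p without HFD 1 or without chow 3 is given for each gene that then loses its call, and list counts and medians where they shift.

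**Figure D1:**
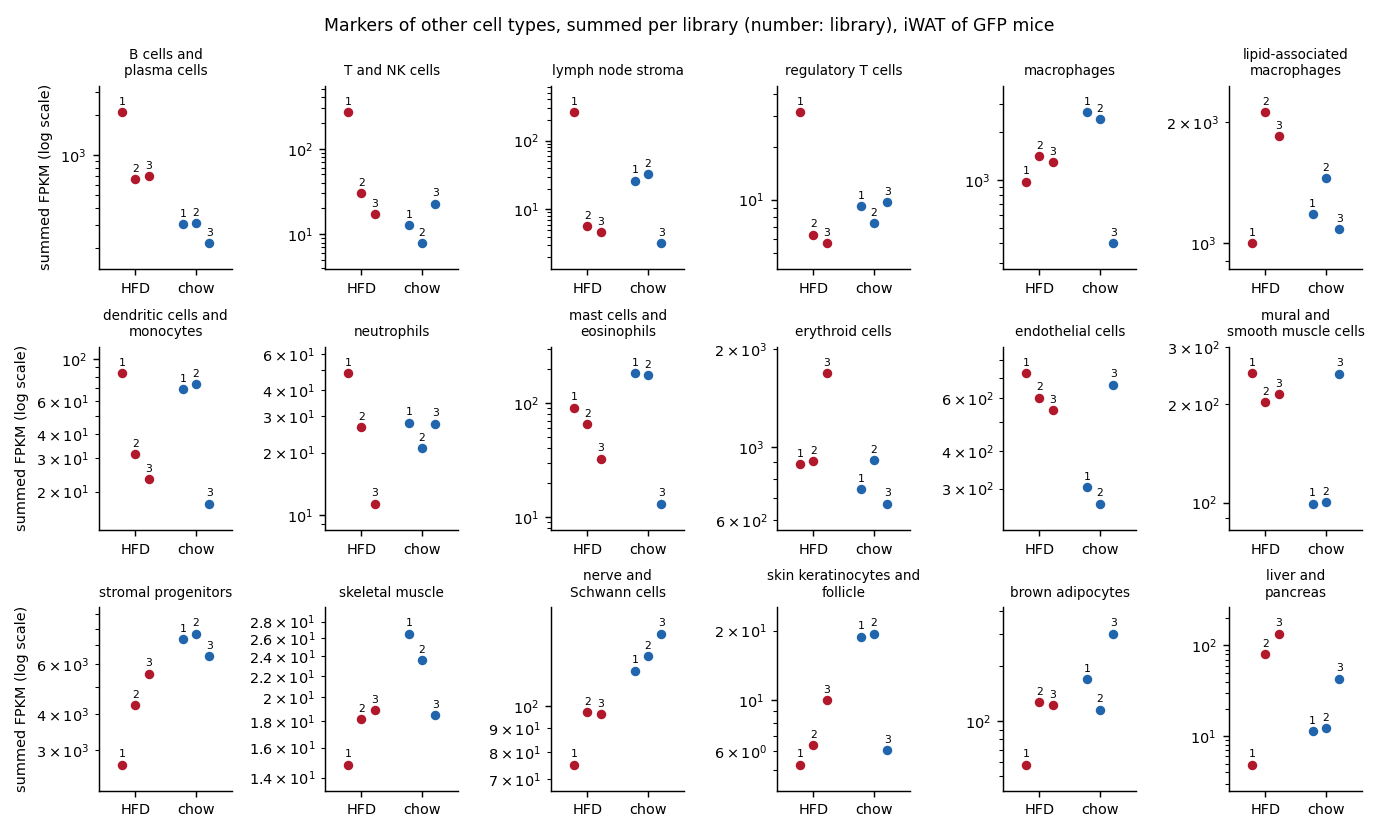
Summed FPKM of marker lists of other cell types in each iWAT library of GFP mice, on a log scale, with HFD libraries in red, chow libraries in blue and the library number above each point. HFD 1 lies above the other 5 libraries for lymphocyte markers, and chow 3 lies below the other 5 for macrophage markers. The sum of stromal progenitor markers is lower in the 3 HFD libraries than in the 3 chow libraries, though not every marker is.

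Effects below are log2 fold changes of HFD over chow ± SE on log2(FPKM + 0.5), a scale on which changes of low genes come out too small, and levels are FPKM. A gene is called where limma's Benjamini-Hochberg adjusted p was under 0.05. HFD called 243 genes higher and 169 lower, 1.64% and 1.14% of the genes tested and 2.77% in all. The median effect was 1.41 for the genes that rose and -1.06 for those that fell, 47 genes rose by at least 2 log2 units and 17 fell by as much, and the smallest called effect was 0.49 in size. In all 412 called genes the HFD and chow libraries did not overlap. Over the genes tested, 12.2% had each HFD library above each chow library and 11.6% had each below. Of the genes tested, 49.2% had an effect above zero, and counts in the lists below stand beside these shares. A gene can pass the filter through the libraries of 1 diet alone, which favours an effect toward that diet. The number of calls rests on a spread shared with the irisin libraries of iWAT and on single libraries. No gene passed the threshold without HFD 2 (2262 genes at an unadjusted p under 0.05), without chow 1 (2052 genes), or with the 6 libraries alone in the fit (2274 genes), and 213 passed without chow 2 and 272 without the muscle-rich library irisin chow 3. Of the 412 genes, 304 were called without HFD 1, 253 without chow 3, 299 without HFD 3 and 194 without chow 2. In 19 alternative analyses 0 changed direction. Where groups do not overlap, leaving out a library or changing the pseudocount cannot reverse a direction. Only the alternatives that rescale the libraries could have done so.

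Signals that adipocytes secrete were among the called genes. Lep, the gene for leptin (chromosome 6, positions 29060220 to 29073877, as the deposited table gives them), was at 873, 1269 and 1354 FPKM on HFD, against 197, 337 and 121 FPKM on chow. Every HFD library exceeded every chow library, and Lep rose by 2.51 ± 0.38 (limma, adjusted p = 0.0111). Cfd encodes adipsin, the serine protease that starts the alternative complement pathway and one of the most abundant adipocyte transcripts. Its level was 733, 858 and 4075 FPKM on HFD, against 20087, 13789 and 17814 FPKM on chow. The third HFD library was far above the other 2 yet below every chow library, and Cfd fell by 3.64 ± 0.67 (limma, adjusted p = 0.0216). Adipoq itself was not called at -0.31 ± 0.29 (limma, adjusted p = 0.595). Of 20 tested adipokine and hormone genes 4 rose and 1 fell, with a median effect of -0.18 (0.15 without HFD 1), against -0.01 over the genes tested.

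The largest rise was that of Mest, an imprinted gene expressed from the paternal allele and known as a marker of growing fat. It was at 136, 321 and 202 FPKM on HFD, against 2.02, 22.2 and 2.28 FPKM on chow. Library 2 was the highest of each diet, and the groups did not overlap (5.26 ± 0.91, limma, adjusted p = 0.0168). Sfrp5, a secreted antagonist of Wnt ligands made by adipocytes, was at 141, 163 and 243 FPKM on HFD, against 6.07, 26.5 and 8.90 FPKM on chow. Nkd1, an intracellular inhibitor of Wnt signalling, was at 11.3, 19.3 and 16.0 FPKM on HFD, against 1.49, 3.08 and 1.70 FPKM on chow, a rise of 2.65 ± 0.39 (limma, adjusted p = 0.0111). Bmp3, a member of the bone morphogenetic protein family that opposes others of the family, rose by 1.86 ± 0.40. In the other direction went Sfrp2, a Wnt modulator of stromal cells, at 5.63, 6.32 and 7.79 FPKM on HFD, against 39.8, 29.6 and 12.9 FPKM on chow (-1.85 ± 0.40, limma, adjusted p = 0.0354). Of the 32 tested genes of expansion, Wnt and BMP antagonism 4 rose and 1 fell. Their median was 0.08, and the same list had 3 rises and 7 falls without chow 3 and 5 rises and 0 falls without HFD 1. The call of Bmp3 ended without chow 3 and that of Sfrp2 without HFD 1 (limma, adjusted p = 0.0668 and 0.0693).

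**Figure D2:**
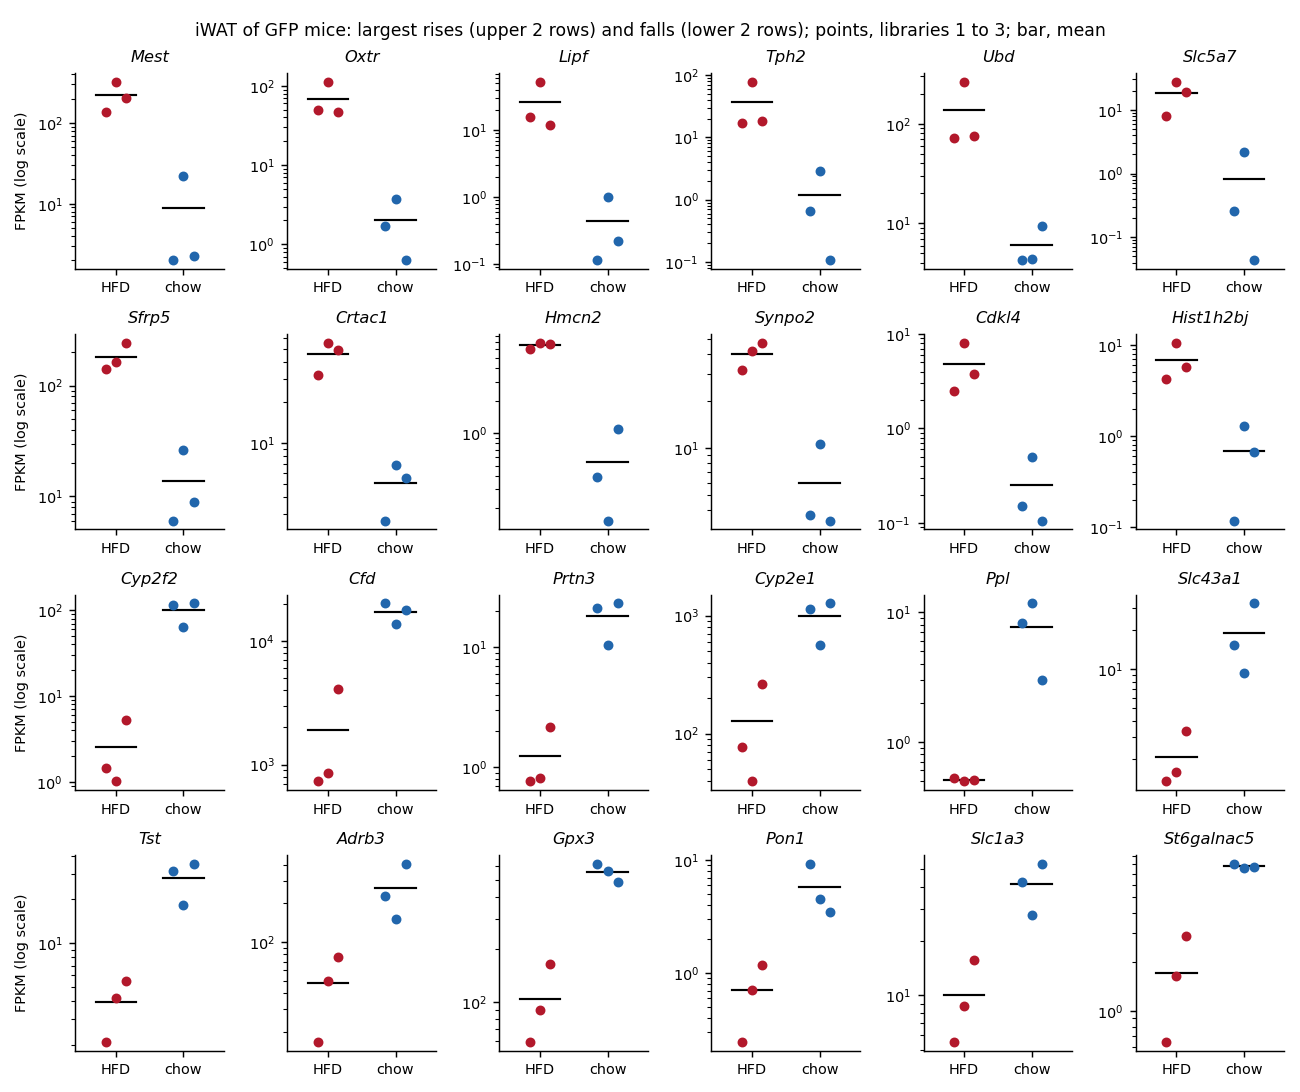
FPKM on a log scale in the 3 HFD libraries (red) and 3 chow libraries (blue) of iWAT from GFP mice, with the mean as a bar, for the 12 protein-coding genes with the largest rises and the 12 with the largest falls among those called. The groups do not overlap in any panel, and library 2 of each diet is the highest of its group for several of the genes that rose, Mest, Oxtr, Lipf and Tph2 among them.

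Several of the genes with the largest rises have their best known roles outside fat. Oxtr, the receptor of oxytocin, was at 49.0, 112 and 47.1 FPKM on HFD, against 1.70, 3.75 and 0.636 FPKM on chow (4.87 ± 0.75). Lipf, known as the lipase of the stomach, was at 15.6, 52.1 and 12.1 FPKM on HFD, against 0.117, 1.01 and 0.220 FPKM on chow. Tph2, the tryptophan hydroxylase of serotonin neurons, was at 16.9, 77.0 and 18.6 FPKM on HFD, against 0.667, 2.84 and 0.108 FPKM on chow. In all 3 genes library 2 was the highest of each diet group. Slc5a7, the choline transporter of cholinergic neurons, was at 8.11, 27.2 and 19.03 FPKM on HFD, against 0.263, 2.19 and 0.0441 FPKM on chow. Ubd, which encodes the ubiquitin-like modifier FAT10, was at 71.3, 262 and 76.0 FPKM on HFD, against 4.30, 4.38 and 9.48 FPKM on chow. Hmcn2, a matrix protein of the hemicentin family, showed little spread among HFD libraries, at 5.98, 6.85 and 6.67 FPKM, against 0.393, 0.155 and 1.08 FPKM on chow. The remaining genes with the largest rises were Crtac1, Synpo2, the kinase gene Cdkl4 and the histone gene Hist1h2bj, with effects from 2.67 to 3.11. Limma's adjusted p of these 10 genes lay between 0.0109 and 0.0370. Without chow 3 the calls of Tph2, Slc5a7 and Cdkl4 ended (limma, adjusted p = 0.0784, 0.0617 and 0.0580).

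The falls were led by enzymes and transporters. Cyp2f2, a cytochrome P450 best known from the airway, was at 1.46, 1.02 and 5.26 FPKM on HFD, against 116, 63.9 and 120.3 FPKM on chow, and fell by 5.23 ± 0.63 (limma, adjusted p = 0.0109). Cyp2e1, the ethanol-oxidising P450, was at 76.3, 39.5 and 265 FPKM on HFD, against 1141, 559 and 1267 FPKM on chow, and its call ended without HFD 1 and without chow 3 (limma, adjusted p = 0.0738 and 0.0778). No other of the 19 tested P450 genes was called, and their median was -0.18. This makes 10.5% of the list called, beside 2.77% of all genes tested. Adrb3, the beta-3 adrenergic receptor through which nerves drive lipolysis in rodent fat, was at 16.6, 49.6 and 76.7 FPKM on HFD, against 228, 151 and 405 FPKM on chow (-2.58 ± 0.53, limma, adjusted p = 0.0296). Without HFD 1 the effect of Adrb3 was -1.96, and without chow 3 its call ended (limma, adjusted p = 0.0615). Gpx3, the secreted glutathione peroxidase, was at 59.1, 89.4 and 165 FPKM on HFD, against 618, 563 and 489.5 FPKM on chow. Tst, the mitochondrial sulfurtransferase rhodanese, was at 2.09, 4.22 and 5.49 FPKM on HFD, against 31.4, 18.4 and 35.0 FPKM on chow. HFD 1 was the lowest of the 6 libraries for Adrb3, Gpx3 and Tst. Of the 35 tested genes of glutathione, NRF2 targets and sulfur metabolism, Gpx3 and Tst were the only members called, both lower (5.71%, beside 2.77% of all genes tested). The list's median moved to -0.21 without HFD 1, with 2 rises beside the 2 falls, against -0.43 with it. Among solute carriers, the neutral amino acid transporter Slc43a1 fell by 2.80 ± 0.42 and the glutamate transporter Slc1a3 by 2.06 ± 0.47, while Slc6a13, a GABA transporter, rose by 1.65 ± 0.32. The call of Slc1a3 ended without HFD 1 and without chow 3 (limma, adjusted p = 0.0925 and 0.0907). Ppl, which encodes the junction protein periplakin, was at 0.524, 0.496 and 0.510 FPKM on HFD, against 8.27, 11.7 and 2.98 FPKM on chow. Pon1, the paraoxonase, and St6galnac5, a sialyltransferase, fell by 2.33 ± 0.36 and 2.03 ± 0.35.

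The 8 called genes of highest level were Cfd, Apoe, Lep, Cyp2e1, Ighm, Tuba1a, Prelp and Gpx3. Apoe, the lipid-carrying apolipoprotein E, was at 1070.1, 1174 and 1688 FPKM on HFD, against 3560.1, 3074 and 2872 FPKM on chow, and fell by 1.30 ± 0.25 (limma, adjusted p = 0.0233). Tuba1a, an alpha-tubulin gene, was at 513, 809 and 801 FPKM on HFD, against 184, 278 and 120.5 FPKM on chow (1.92 ± 0.41), and its call was lost without chow 3 (limma, adjusted p = 0.0744). Prelp, a leucine-rich matrix proteoglycan, was at 409, 627 and 599 FPKM on HFD, against 110.0, 176 and 189 FPKM on chow (1.79 ± 0.28, limma, adjusted p = 0.0112).

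On HFD 5 genes of the list of cholesterol synthesis and sterol sensing rose, and 3 genes of the de novo lipogenesis list fell. Of 25 tested genes of cholesterol synthesis and sterol sensing 5 rose (20.0%), 0 fell and 20 lay above zero, with a median of 0.49. Over all genes tested 1.64% rose and 49.2% lay above zero. Hmgcs1, the synthase that makes HMG-CoA, was at 68.6, 157 and 116 FPKM on HFD, against 29.9, 42.4 and 30.9 FPKM on chow (1.65 ± 0.28, limma, adjusted p = 0.0164). HFD 2 was the highest of the 6 libraries, and the groups did not overlap. Sc5d, a sterol desaturase, rose by 1.14 ± 0.23, Hsd17b7, a sterol ketone reductase, by 1.10 ± 0.23 and Stard4, a sterol carrier, by 1.07 ± 0.24. The list had 6 rises without HFD 1 (median 0.68) and 2 without chow 3 (median 0.44). Without chow 3 the calls of Sc5d, Hsd17b7 and Stard4 ended (limma, adjusted p = 0.0558, 0.0649 and 0.0879), and that of Stard4 ended without HFD 1 too (0.0769). Its 27 genes summed to 388, 832 and 557 FPKM on HFD, against 313, 328 and 312 FPKM on chow.

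The regulator of this pathway, SREBP-2, is known to bind sterol regulatory elements close to the start of its target genes. Of the 5 genes called, RefSeq promoters were at hand for Hmgcs1, Sc5d and Hsd17b7, and the 150 bases before each start are shown to see which of them hold the core TCACNCCAC, set in capitals. It was searched on both strands in the 250 bases before the start. The stretches are from build GRCm38.p6, at chr13:119690201-119690350 on the plus strand for Hmgcs1, chr9:42264301-42264450 on the minus strand for Sc5d and chr1:169969206-169969355 on the minus strand for Hsd17b7.
Hmgcs1: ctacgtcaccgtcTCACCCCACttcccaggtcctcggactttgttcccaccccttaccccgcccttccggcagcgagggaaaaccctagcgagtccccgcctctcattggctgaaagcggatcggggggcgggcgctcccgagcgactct
Sc5d: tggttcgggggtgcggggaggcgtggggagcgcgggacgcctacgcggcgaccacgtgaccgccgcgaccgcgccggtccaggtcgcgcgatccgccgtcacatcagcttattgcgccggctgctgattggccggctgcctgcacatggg
Hsd17b7: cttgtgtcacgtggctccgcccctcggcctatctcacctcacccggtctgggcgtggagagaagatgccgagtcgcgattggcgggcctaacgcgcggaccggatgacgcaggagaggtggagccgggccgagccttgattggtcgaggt
The core was present in 1 of the 19 tested list members with a promoter in the table, Hmgcs1, and in 1.22% of all 27025 promoters and 1.26% of the 10093 that belong to tested genes. These letters not being found in the other windows says nothing of SREBP-2 at those genes.

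In the de novo lipogenesis list, which also holds desaturases and elongases, 3 of 23 tested genes fell and 0 rose. Acaca, the acetyl-CoA carboxylase that makes malonyl-CoA, was at 8.32, 20.4 and 16.0 FPKM on HFD, against 47.7, 50.8 and 38.5 FPKM on chow (-1.66 ± 0.29, limma, adjusted p = 0.0169). Fads1, the delta-5 desaturase, was at 8.95, 8.73 and 16.0 FPKM on HFD, against 29.7, 23.8 and 31.6 FPKM on chow (-1.35 ± 0.22), and Elovl6, an elongase of saturated chains, fell by 1.30 ± 0.30, a call that ended without HFD 1 (limma, adjusted p = 0.0950). Fasn was not called at -1.08, and Insig1, which holds sterol regulators in the endoplasmic reticulum, was not called at 1.44 (limma, adjusted p = 0.0539). The list's median was -0.34. Without HFD 1 it was -0.13, with 2 rises and 2 falls. No gene of insulin signalling and GLUT4 (27 tested, median -0.03) or of glycolysis and the pentose phosphate route (25 tested, median 0.16) was called.

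**Figure D3:**
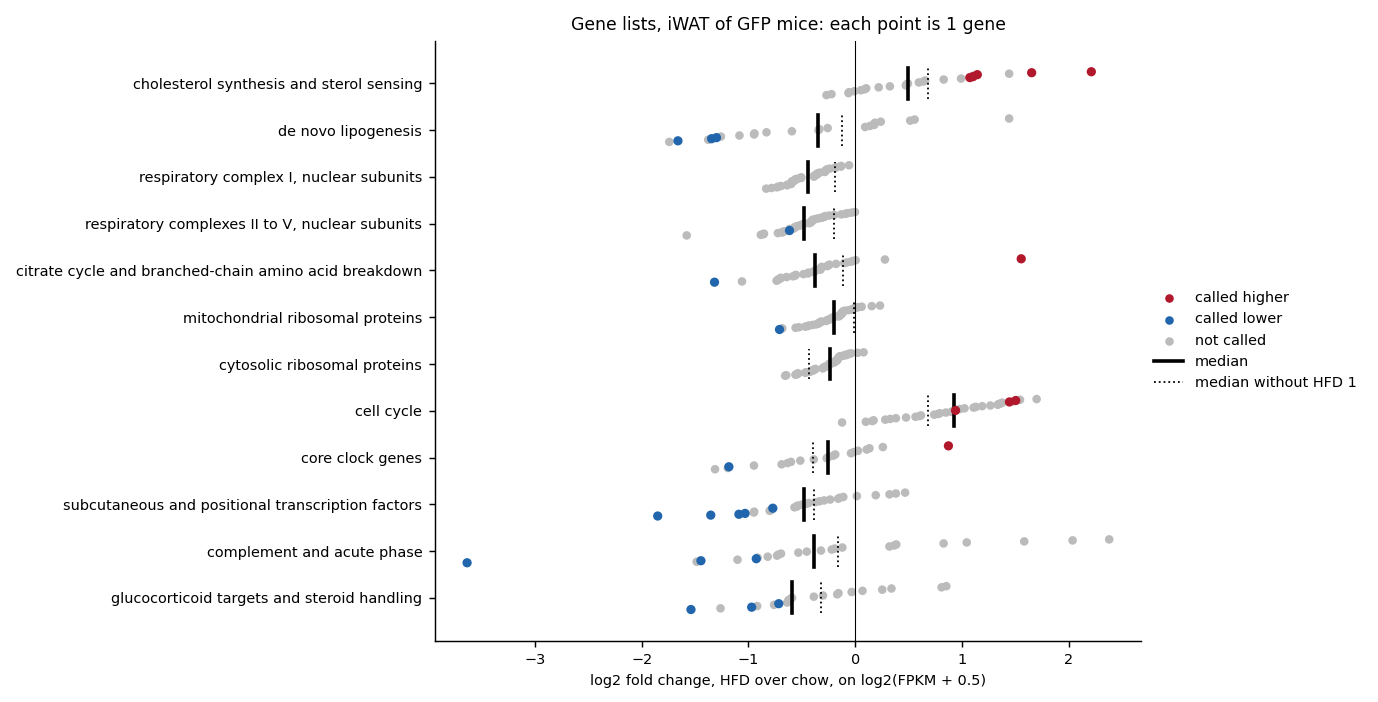
Log2 fold change of HFD over chow on log2(FPKM + 0.5) for each tested gene of 12 lists in iWAT of GFP mice, with called genes in red (higher) and blue (lower), other genes in grey, the list's median as a solid bar and its median without HFD 1 as a dotted bar. Cholesterol synthesis lies mostly above zero with a median of 0.49 and cell cycle genes with a median of 0.93, and the respiratory lists lie below zero by a margin that shrinks without HFD 1.

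Nuclear genes of the respiratory chain had effects all on 1 side of zero, and 1 of them was called. All 36 tested nuclear genes of respiratory complex I had an effect below zero, from -0.83 to -0.06 with a median of -0.45, and none was called. All 41 genes of complexes II to V were also below zero, from -1.58 for Cox8b to -0.002 (median -0.48). Atp5g2, a subunit of the ATP synthase ring, was the single one called, at 39.8, 45.6 and 47.9 FPKM on HFD, against 65.4, 62.4 and 77.6 FPKM on chow (-0.62 ± 0.13, limma, adjusted p = 0.0360, 0.0533 without HFD 1 and 0.0762 without chow 3). With quantile normalization or voom 1 of the 41 lay above zero. The gene of complex I with the smallest p, Ndufa1, was at 77.7, 124 and 134 FPKM on HFD, against 200.2, 205 and 181 FPKM on chow (-0.83 ± 0.20, limma, adjusted p = 0.0558). The lymphocyte-rich HFD 1 carried the lowest sum of both lists, and without it the medians were -0.19 and -0.20, with 4 and 6 genes above zero. Without chow 3 they were -0.37 and -0.36, with 0 and 3 above. In irisin mice the same lists had medians of 0.26 and 0.27. The diet by vector interaction called none of their genes, so a difference between the vectors was not shown. Of 33 genes of the citrate cycle and branched-chain amino acid breakdown 30 lay below zero (29 to 31 under the other scalings), with 1 rise and 1 fall, while 12 lay above zero without HFD 1 and 7 without chow 3. The 2 called were the transaminases that start the breakdown: Bcat1, the cytosolic form, was at 4.40, 6.69 and 5.13 FPKM on HFD, against 1.14, 1.45 and 1.95 FPKM on chow (1.56 ± 0.22, limma, adjusted p = 0.0109), and Bcat2, the mitochondrial form, was at 23.6, 27.6 and 45.7 FPKM on HFD, against 83.6, 58.7 and 97.0 FPKM on chow (-1.32 ± 0.29, limma, adjusted p = 0.0394). The call of Bcat2 ended without HFD 1 and without chow 3 (limma, adjusted p = 0.0765 and 0.0803). Mitochondrial ribosomal proteins had 37 of 42 genes below zero (37 to 39 under the other scalings), with Mrps15 called lower (-0.71 ± 0.16), but neither without HFD 1 nor without chow 3 (limma, adjusted p = 0.0677 and 0.0803). Their median of -0.20 was -0.01 without HFD 1, with 20 genes above zero. Cytosolic ribosomal proteins had 47 of 49 below zero (44 to 48 under the other scalings) and 0 called, with a median of -0.24, and of -0.43 without HFD 1. The 13 genes of the mitochondrial genome had a median of -0.35 with none called, and their direction depended on the scaling: quantile normalization gave a median of 0.07 with 8 genes above zero. Without HFD 1 the median was -0.09.

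Genes of heat production showed no common direction. Ucp1, the uncoupling protein of brown and beige fat, was too low to be tested, at 0.467, 0.670 and 0.0651 FPKM on HFD, against 0, 0.108 and 0 FPKM on chow. Of 18 tested genes of the thermogenic list 1 rose and 2 fell. Ebf2, a transcription factor of brown and beige precursors, was at 1.52, 2.09 and 2.63 FPKM on HFD, against 7.15, 7.33 and 6.42 FPKM on chow (-1.55 ± 0.21, limma, adjusted p = 0.0109). Ckb, a creatine kinase of the creatine cycle of beige fat, was at 12.1, 16.0 and 17.9 FPKM on HFD, against 27.5, 24.4 and 28.6 FPKM on chow (-0.80 ± 0.16, limma, adjusted p = 0.0281). Gk, glycerol kinase, rose by 1.16 ± 0.26. Without chow 3 the calls of Ckb and Gk ended (limma, adjusted p = 0.0569 and 0.0784). Cox8b, a cytochrome oxidase subunit of brown fat, was not called at -1.58 ± 0.48 (limma, adjusted p = 0.102).

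Of the transcription factors that mark the position of the pad, 4 fell on HFD. Of 28 tested genes of the list, 23 lay below zero, 5 fell and 0 rose (median -0.48), one of the 5 being Sfrp2, which is no transcription factor. Tbx15, a T-box factor of subcutaneous fat, was at 2.88, 3.92 and 4.68 FPKM on HFD, against 9.64, 10.7 and 6.07 FPKM on chow (-1.09 ± 0.23, limma, adjusted p = 0.0339). Hoxa9, a homeobox gene of the posterior body, was at 0.948, 2.49 and 1.92 FPKM on HFD, against 4.27, 4.26 and 7.21 FPKM on chow (-1.35 ± 0.28, limma, adjusted p = 0.0298). Irx5, an Iroquois factor, was at 0.163, 0.309 and 0.392 FPKM on HFD, against 1.16, 1.17 and 0.974 FPKM on chow, and Hoxc4 fell by 0.77 ± 0.17. Under 0.5 FPKM in each HFD library, Irx5 passed the filter through the chow libraries alone. Without HFD 1 the list held 1 fall, Hoxa9, with Tbx15, Irx5, Hoxc4 and Sfrp2 no longer called (limma, adjusted p = 0.0666, 0.0513, 0.0718 and 0.0693). Without chow 3 it held 3, with Hoxa9 and Hoxc4 no longer called (0.0601 and 0.0828). The sum of stromal progenitor markers was lower in the same libraries, at 2660.5, 4300.2 and 5552 FPKM on HFD, against 7363, 7679 and 6388 FPKM on chow. Of the 16 markers 10 lay below zero and 6 above. None was called, and without chow 3 there were 1 called higher and 5 lower. The part of stromal progenitors in these values was not tested. In bulk tissue fewer cells of a type and less RNA per cell cannot be told apart.

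Of 34 tested cell cycle genes 33 lay above zero, with a median of 0.93. On HFD 3 were called higher (8.82%, beside 1.64% of all genes tested). Cdk1, the mitotic kinase, was at 1.88, 2.55 and 1.48 FPKM on HFD, against 0.412, 0.360 and 0.302 FPKM on chow (1.504 ± 0.246, limma, adjusted p = 0.0138). Being under 0.5 FPKM in each chow library, Cdk1 passed the filter through the HFD libraries alone. Members that passed in this way add to the count above zero and to the median. Ccne1, cyclin E1 of the entry into DNA synthesis, was at 4.49, 3.27 and 2.48 FPKM on HFD, against 1.07, 1.24 and 0.514 FPKM on chow (1.44 ± 0.30, limma, adjusted p = 0.0314). Aurka, the spindle kinase Aurora A, was at 2.29, 2.27 and 1.54 FPKM on HFD, against 0.889, 0.701 and 0.835 FPKM on chow (0.94 ± 0.22, limma, adjusted p = 0.0465). The list summed to 171, 115 and 80.2 FPKM on HFD, against 64.1, 77.5 and 60.4 FPKM on chow, so the lymphocyte-rich HFD 1 was the highest. Without HFD 1 the median was 0.69 and Cdk1 was the gene still called (1.52, limma, adjusted p = 0.0229), with Ccne1 and Aurka at adjusted p of 0.0667 and 0.0816. Without chow 3 those 2 lost their calls as well (0.0636 and 0.0724). Which cells carried these transcripts was not measured. Cdkn2b, an inhibitor of the G1 kinases, rose as well, at 10.9, 20.4 and 16.4 FPKM on HFD, against 7.66, 7.49 and 5.77 FPKM on chow (1.10 ± 0.21, limma, adjusted p = 0.0226), and the stress gene Gadd45b rose by 1.47 ± 0.34, a call that ended without HFD 1 and without chow 3 (limma, adjusted p = 0.0909 and 0.0938).

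Promoters of mitotic genes are known for CCAAT boxes and for the cell cycle homology element, TTTGAA. Both were searched on both strands in the 250 bases before the start. The 150 bases nearest the start are shown for Cdk1 and Aurka, with the motifs in capitals (ATTGG is CCAAT on the other strand, and the motifs do not overlap here). Ccne1, also called, is not shown. The stretches shown lie, in RefSeq on build GRCm38.p6, at chr10:69352913-69353062 for Cdk1 and chr2:172370571-172370720 for Aurka, both on the minus strand.
Cdk1: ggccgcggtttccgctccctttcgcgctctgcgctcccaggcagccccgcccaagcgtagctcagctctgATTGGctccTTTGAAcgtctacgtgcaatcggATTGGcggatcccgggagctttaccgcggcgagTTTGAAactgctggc
Aurka: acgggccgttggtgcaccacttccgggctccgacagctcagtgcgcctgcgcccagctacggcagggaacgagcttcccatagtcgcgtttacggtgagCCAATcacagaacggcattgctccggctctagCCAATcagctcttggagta
Cdk1 held 2 copies of each motif, Aurka 2 CCAAT boxes, and the same stretch of Ccne1 neither. Among tested cell cycle genes with a promoter in the table, 19 of 26 held CCAAT (73.1%) and 8 held TTTGAA (30.8%), beside 40.0% and 12.7% of the promoters of tested genes. The shares are a description and were not tested.

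Among 20 clock genes 1 rose and 1 fell. Dbp, a factor driven directly by the clock, showed little spread, at 5.19, 5.58 and 5.23 FPKM on HFD, against 12.1, 13.1 and 13.0 FPKM on chow (-1.18 ± 0.23, limma, adjusted p = 0.0241). Cry1, a repressor of the clock, was at 4.9975, 3.78 and 3.51 FPKM on HFD, against 1.54, 2.07 and 2.42 FPKM on chow (0.87 ± 0.18, limma, adjusted p = 0.0305, and 0.0558 without HFD 1). The other 18 clock genes were not called, and the time of day of sampling is not in the labels. Among glucocorticoid targets and steroid enzymes 3 of 21 fell and 0 rose. Mt1, a metallothionein, was at 26.2, 44.4 and 59.9 FPKM on HFD, against 102, 133 and 129 FPKM on chow (-1.54 ± 0.26, limma, adjusted p = 0.0168), and Hsd11b1, which regenerates active glucocorticoid, was at 18.7, 25.2 and 29.6 FPKM on HFD, against 38.7, 43.3 and 37.8 FPKM on chow (-0.72 ± 0.16, limma, adjusted p = 0.0441). The sulfotransferase gene Sult1a1 fell by 0.97 ± 0.23. The calls of Hsd11b1 and Sult1a1 ended without HFD 1 (limma, adjusted p = 0.0541 and 0.0887) and without chow 3 (0.0580 and 0.0870), which left the list with 1 fall each time, beside 2 rises without chow 3. Of the hormone and metabolite receptors, 30 tested, Oxtr and the membrane progestin receptor gene Paqr7 rose and Adrb3 fell. In the hypoxia list Adm, adrenomedullin, rose by 0.68 ± 0.13 and P4ha1, a collagen prolyl hydroxylase, fell by 0.82 ± 0.19, a call that ended without HFD 1 and without chow 3 (limma, adjusted p = 0.0892 and 0.0778).

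In matrix and complement, single genes moved against lists without a common direction. None of 23 collagen genes was called, with a median of -0.08, and of 0.18 without HFD 1 and -0.30 without chow 3. Thbs1, thrombospondin, was at 13.3, 19.8 and 12.7 FPKM on HFD, against 1.55, 2.99 and 8.04 FPKM on chow (1.97 ± 0.41, limma, adjusted p = 0.0296), and Fbln5, an elastic fibre protein, rose by 0.83 ± 0.19 (limma, adjusted p = 0.0844 without chow 3). The protease gene Adamts15 fell by 0.94 ± 0.21. Without chow 3 the lists of matrix glycoproteins (36 tested) and of proteases and inhibitors (26 tested) held 5 falls each, against 1 each with it. Besides Cfd, 2 of the 24 tested complement and acute phase genes fell: C2, at 3.93, 3.70 and 6.33 FPKM on HFD, against 15.4, 15.2 and 9.76 FPKM on chow (-1.45 ± 0.24, limma, adjusted p = 0.0144), and C1s1, a protease of the classical pathway, by 0.93 ± 0.19. Without chow 3 the list held 7 falls. Of 30 interferon response genes Ubd and Rsad2 (0.81 ± 0.16) rose and Irf7 (-0.88 ± 0.15) fell. Of 16 iron and metal genes Hfe, the haemochromatosis gene, rose (1.11 ± 0.24, limma, adjusted p = 0.0803 without chow 3) and Mt1 fell.

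Markers of immune cells, vessels and nerve were read in the same way. Ighm, the heavy chain of immunoglobulin M, was at 1269, 635 and 654 FPKM on HFD, against 275, 290.1 and 202 FPKM on chow (1.68 ± 0.35, limma, adjusted p = 0.0308). It was the single B cell marker called of 6 tested. Without HFD 1 its effect was 1.35 (limma, adjusted p = 0.0522), and the immunoglobulin D gene Ighd was called in its place. Without chow 3 no B cell marker was called, Ighm included (limma, adjusted p = 0.0682). Summed B cell markers were 2115, 655 and 697 FPKM on HFD, against 304, 308 and 218.5 FPKM on chow. None of 16 macrophage markers was called, with sums of 972, 1399.5 and 1290.3 FPKM on HFD, against 2659, 2387 and 403 FPKM on chow. Without chow 3, 3 of them fell and the median was -1.21, against -0.36 with it. Of 12 markers of lipid-associated macrophages Fabp5, a fatty acid carrier that adipocytes express too, rose (48.7, 107 and 68.5 FPKM on HFD, against 28.1, 31.9 and 33.2 FPKM on chow, 1.18 ± 0.26). Without chow 3 its call ended (limma, adjusted p = 0.0558), and the list held 0 rises and 1 fall. Neutrophil markers had 1 of 6 called, Prtn3, the protease proteinase 3, at 0.764, 0.819 and 2.15 FPKM on HFD, against 21.1, 10.5 and 23.1 FPKM on chow (-3.44 ± 0.40), and their sums overlapped, 11.3 to 48.7 FPKM on HFD, against 21.1 to 27.9 FPKM on chow. The list was split, with 3 markers above zero, S100a8 the highest at 2.74, and 3 below. Its median was 0.31, and -0.17 without HFD 1 and -0.04 without chow 3. Endothelial markers had 13 of 15 above zero (median 0.63) with none called, Vwf nearest at 7.83, 6.95 and 5.95 FPKM on HFD, against 2.85, 3.44 and 2.49 FPKM on chow (1.11 ± 0.28, limma, adjusted p = 0.0603). Chow 3 held the highest endothelial sum of the chow libraries, 663 FPKM against 304 and 267 FPKM, and without it the median was 1.03 with 2 called higher and 1 lower. Of 11 tested markers of nerve 2 fell, among them Cdh19, a cadherin gene of Schwann cells, at 0.440, 0.783 and 0.946 FPKM on HFD, against 2.58, 2.31 and 2.64 FPKM on chow (-1.32 ± 0.21, limma, adjusted p = 0.0132). MHC class II genes, 10 tested, all lay above zero with a median of 0.83 and none called, and the median was 0.32 without HFD 1 and 0.42 without chow 3.

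Lists of T and natural killer cells (10 tested), regulatory T cells (6), lymph node stroma (3), dendritic cells and monocytes (8), mast cells and eosinophils (6), erythroid cells (5), mural cells (12), brown adipocytes (5), skeletal muscle (3), epithelium (2), skin (3) and liver and pancreas (5) had none called. Without chow 3, 3 of the 6 mast cell and eosinophil markers were called lower, with a median of -1.63 against -0.44 with it. The same omission gave 2 calls lower in dendritic cells and monocytes, 1 lower in skin, 1 higher in mural cells and 1 higher in brown adipocytes, and omitting HFD 1 gave 1 higher in T and natural killer cells. Liver and pancreas markers summed to 4.88, 80.7 and 135 FPKM on HFD, against 11.3, 12.4 and 43.2 FPKM on chow, and 3 of the 5 were called higher without HFD 1. Skeletal muscle markers summed to 14.8 to 18.9 FPKM on HFD, against 18.5 to 26.5 FPKM on chow, and mesothelial and epididymal markers summed to at most 2.26 and 0.378 FPKM in each library. Bnc1 and Wt1 of the mesothelium were listed at 0 in all 6.

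Of 20 tested imprinted genes Mest, Zim1 and Peg3 rose and 0 fell, while 10 lay above zero and the median was -0.03. Zim1, at 1.74, 3.99 and 3.50 FPKM on HFD, against 0.238, 0.541 and 0.861 FPKM on chow, and Peg3, a paternally expressed zinc finger gene at 18.2, 31.8 and 38.6 FPKM on HFD, against 5.37, 8.17 and 9.13 FPKM on chow, start 34.0 kb apart on chromosome 7 (1.76 ± 0.33 and 1.86 ± 0.37, limma, adjusted p = 0.0219 and 0.0256). They were the genes called among 9 tested within 500 kb of the start of Peg3. Within 500 kb of Mest, 4 of 12 tested genes rose and 0 fell, beside 1.64% of all genes tested that rose. The 4 include Mest itself and Mir335. With 8 reads in all, Mir335 passed the filter through the HFD libraries alone. Copg2, a coat protein gene on the opposite strand that overlaps the end of Mest, was at 27.6, 70.9 and 38.4 FPKM on HFD, against 10.2, 11.9 and 10.2 FPKM on chow (1.93 ± 0.36). The sources used here do not give whether counting used strand, so reads from Mest and Copg2 cannot be told apart where they overlap. The 4 regions described were chosen after their values were seen. Sfrp5 and Crtac1, both among the largest rises, start 229.5 kb apart on chromosome 19 with Golga7b, not called at 1.0001, between their starts. Prtn3 starts 16.4 kb before Cfd on chromosome 10. Elane, neutrophil elastase, lies between them and was not called at -1.12 (limma, adjusted p = 0.169), and Plppr3, which overlaps the start of Prtn3 on the other strand, fell by 1.505 ± 0.272.

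**Figure D4:**
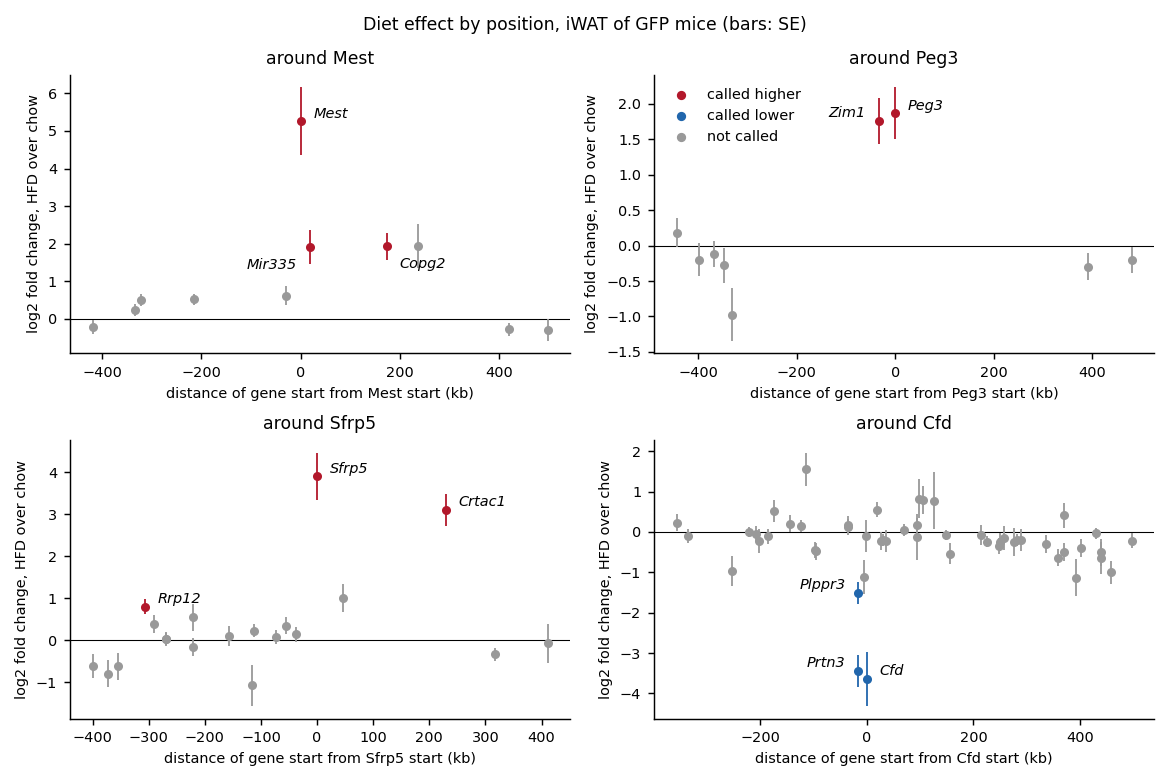
Log2 fold change of HFD over chow (points, bars are SE) for the tested genes within 500 kb of the start of Mest, Peg3, Sfrp5 and Cfd, by distance in kb along the chromosome, with called genes in red (higher) and blue (lower) and others in grey. Called genes number 4 of 12 around Mest, 3 of them drawn, 2 of 9 around Peg3, 3 of 20 around Sfrp5 and 3 of 51 around Cfd. Each count includes the gene its region is named for, and 2.77% of all genes tested were called. The point of Mir335, with 8 reads in all, depends on the pseudocount.

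Of the 412 called genes 50 were not protein coding, 24 of them higher and 26 lower. The largest rise was that of 1700047G03Rik on chromosome 15, at 72.0, 131 and 121 FPKM on HFD, against 4.15, 13.9 and 1.71 FPKM on chow (4.31 ± 0.65, limma, adjusted p = 0.0111). Without chow 3 the effect was 3.68. It overlaps the small transcript Gm24074, also called but not without chow 3 (limma, adjusted p = 0.0600), and their reads cannot be told apart. The pseudogene Mup-ps21 was at 5.57, 15.1 and 7.01 FPKM on HFD, against 0, 0.924 and 0 FPKM on chow, 213 reads on HFD and 7 on chow. Its reads may be shared with near-identical genes of the major urinary protein family, and its source is uncertain. The falls were led by Gm48832, Mir99a and Gm11816. The effect of Gm11816 was -2.23, with its call lost without HFD 1 (limma, adjusted p = 0.0579), and -2.85 without chow 3. Mir99a, the locus of microRNA miR-99a, had 1, 2 and 3 reads on HFD, against 22, 13 and 17 reads on chow, so that, relative to all gene reads, the chow libraries held 9.0 times as many (95% exact binomial interval 3.87 to 25.7, counting error only). Its host transcript Mir99ahg was called lower, at 0.245, 0.415 and 0.432 FPKM on HFD, against 1.62, 1.15 and 1.41 FPKM on chow (-1.13 ± 0.20, limma, adjusted p = 0.0185). Mir99ahg passed the filter through the chow libraries alone. Mir99a lies within Mir99ahg, so reads across Mir99a cannot be told apart from those of the host, and these falls are not independent. Mir335, in an intron of Mest, had 4, 3 and 1 reads on HFD, against 0 reads in each chow library, too few for a fold change, and its call ended without HFD 1 and without chow 3 (limma, adjusted p = 0.0949 and 0.0784). The mature forms that these 2 loci give rise to are shown with the seed, bases 2 to 8, in capitals (RefSeq, build GRCm38.p6, on chromosomes 16 and 6).
mmu-miR-99a-5p: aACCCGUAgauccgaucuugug
mmu-miR-335-5p: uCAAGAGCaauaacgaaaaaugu
Libraries of polyadenylated RNA see unprocessed transcripts across such a locus, and mature microRNA was not measured. The seeds of the 2 differ. Mir335 and Mir99ahg were chosen after their values were seen.

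The same diet contrast in iWAT of irisin mice uses 6 other libraries, although the spread was estimated over all 12. There 1376 genes were called, 9.27% of those tested, and 263 to 1187 with 1 irisin library left out. Of the 412 genes called in GFP mice 411 had the same direction in irisin mice (99.8%, beside 68.9% of all genes tested), and 300 were called there in that direction. These 300 are 72.8% of the calls of GFP mice and 21.8% of those of irisin mice. The median size of effect of the 412 genes was 1.24 in GFP mice and 1.16, in the same direction, in irisin mice. Mest was at 149.5 ± 104 FPKM in irisin mice on HFD and 4.78 ± 2.71 FPKM in irisin mice on chow (SD, n = 3 libraries each), and Cfd at 2419 ± 1481 and 15776 ± 1882 FPKM. Mir99a, called in GFP mice, was at 6.78 ± 3.29 FPKM in irisin mice on HFD and 11.3 ± 3.96 FPKM in irisin mice on chow (SD, n = 3 libraries each) and was not called there (limma, adjusted p = 0.239). The diet by vector interaction called 0 of 14847 genes with limma, or 0%, with 886 genes at an unadjusted p under 0.05 and a lowest adjusted p of 0.694, and 0 with voom on the recovered reads (772 genes at an unadjusted p under 0.05). A difference in diet effect between the vectors was thus not detectable here, which does not show that the effects were alike.

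In eWAT of GFP mice HFD called 3335 of 16507 genes (20.2%). Of the 412 genes 342 had the same direction in eWAT (83.0%, beside 66.4% of the genes tested in both), 186 were called there in that direction and 10 in the opposite one. The 186 are 45.15% of the iWAT calls and 5.58% of the eWAT calls. The diet by depot interaction called 714 genes, 4.33% of those tested, with 220 more positive in iWAT and 494 more negative. That count rested on single libraries, at 1383 without iWAT HFD 1, 1258 without iWAT chow 3, 400 without iWAT HFD 3, 334 without iWAT chow 1, 388 without iWAT chow 2 and 466 without eWAT HFD 3, which held epididymal transcripts. Of the 412 genes 52 were among the 714. Fgf1, a growth factor of fat remodelling, was at 12.4, 22.2 and 20.0 FPKM on HFD in iWAT, against 2.22, 5.26 and 3.72 FPKM on chow, and in eWAT it averaged 29.4 ± 4.21 FPKM on HFD and 69.8 ± 22.4 FPKM on chow (SD, n = 3 libraries each). Ckb went the other way, at 137 ± 43.3 FPKM in eWAT on HFD and 29.0 ± 2.59 FPKM in eWAT on chow (SD, n = 3 libraries each), against its fall in iWAT. The most negative differences were in genes of lipid-laden macrophages that did not move in iWAT beyond the spread. Spp1, osteopontin, was at 0.865, 2.50 and 0.969 FPKM on HFD in iWAT, against 2.26, 5.71 and 1.74 FPKM on chow, while in eWAT it averaged 193 ± 169 FPKM on HFD and 0.633 ± 0.480 FPKM on chow (SD, n = 3 libraries each). Gpnmb, a membrane glycoprotein of such cells, was at 6.46, 25.2 and 6.89 FPKM on HFD in iWAT, against 14.7, 23.5 and 2.68 FPKM on chow, while in eWAT it averaged 589.6 ± 178 FPKM on HFD and 3.39 ± 1.35 FPKM on chow (SD, n = 3 libraries each). The labels do not say which iWAT and eWAT libraries share a mouse.

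**Figure D5:**
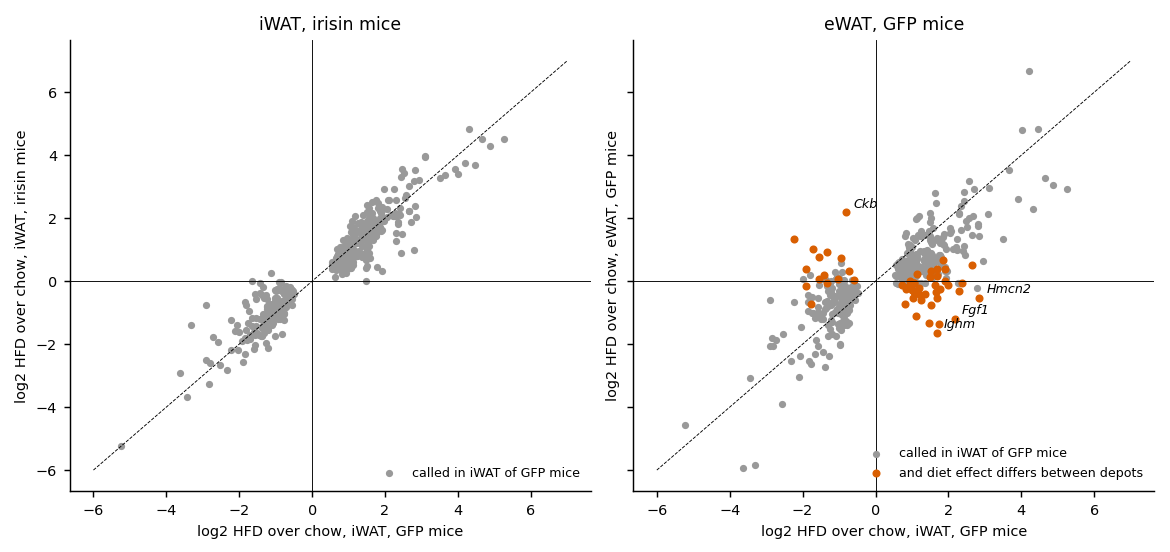
Log2 fold change of HFD over chow of the 412 genes called in iWAT of GFP mice (x axis) against the same contrast in iWAT of irisin mice (left) and in eWAT of GFP mice (right), with the line of equal effects dashed. In irisin mice 411 genes keep the direction, in eWAT 342, and the 52 genes whose diet effect differs between the depots by the interaction test are in orange.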

How the data were processed

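Polyadenylated RNA was sequenced, per the labels' protocols. The submitters' processing notes name HISAT2 2.0.5, an aligner, and featureCounts 1.5.0-p3, a read counter. The authors deposited FPKM per gene and library. Another 8 columns of no single library were not used. No source used here gives the build. Of the gene identifiers, 98.3% of those in GENCODE M21 (GRCm38) have the same position and strand there, and coordinates are those of the deposited table. FPKM times gene length gave whole reads for all values within 0.01. The authors' scaling was 0.93 to 1.01 times the sum of gene reads in 5 of the 6 libraries and 1.15 in HFD 1.

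Limma 3.58.1 (R 4.3.3) was run on log2(FPKM + 0.5), two-sided, with a variance trend and Benjamini-Hochberg adjustment over the genes tested. The 12 iWAT libraries shared a fit, as did the 12 GFP libraries of both depots for the depot interaction. The smallest exact permutation p for groups of 3 is 0.1. Alternatives changed the pseudocount, filter, scaling, block, weights, moderation and libraries, or used limma's voom, scaled by a trimmed mean of M-values, on the recovered reads. On simulated data for this comparison over 14847 genes, 46.0% of 2-fold, 88.9% of 4-fold and 96.7% of 8-fold changes were recovered, and 4.67% of 150 calls were false. The simulated spread was drawn for each gene on its own. It held no shifts shared across genes such as those of HFD 1 and chow 3, so these rates may not hold for the real libraries.

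The members, 66 gene lists and rules were chosen with earlier results of these data known. Named were the 12 largest rises and falls among called protein-coding genes with non-overlapping groups and a mean of at least 1 FPKM, 3 and 3 other genes likewise, up to 4 called genes of a list described (or 2 of smallest p), the 8 most abundant, 5 and 5 per interaction, and Lep, Adipoq, Cfd, Mest and Ucp1. Lists were described with at least 2 called genes or 80% of at least 5 on 1 side of zero, cell types always. Other genes were chosen after their values were seen, and some genes are not reported here. Promoters are RefSeq's. Figures were drawn with matplotlib 3.10.9.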

Additional observations from a re-analysis of the deposited data

Results flagged for a closer look

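In 24 of the 131 genes named by rule, the diet effect in GFP mice differed between the depots (limma interaction, adjusted p under 0.05). Some of these genes were named for having the largest differences by this same test, so the count is partly set by selection. Of all 16507 genes in that fit, the interaction called 4.33%. Values are the log2 effect in iWAT minus that in eWAT. Among genes called in iWAT the difference was 3.37 for Hmcn2, 3.36 for Fgf1, 3.32 for Ighm, 2.12 for Nkd1, 1.996 for Slc6a13, 1.08 for Fbln5, -1.09 for Irx5, -1.25 for Cdh19, -1.62 for Mt1, -1.67 for Adamts15 and -2.98 for Ckb. Irx5 averaged 0.057 FPKM on HFD and 0.035 FPKM on chow in eWAT, too low for a diet effect to be read there. Ighm moved with the B cell markers, which were high in the iWAT library HFD 1 and the eWAT library chow 1, and the part of these in it was not tested. Among genes not called in iWAT the difference was negative for 8 genes known from macrophages, -7.98 for Spp1, -7.24 for Mmp12, -7.20 for Gpnmb, -5.88 for Atp6v0d2, -5.86 for Rnf128, -4.02 for Itgax, -3.53 for Fcgr1 and -1.97 for Cd14. It was positive for 3 others known from macrophages, 4.14 for Retnla, 3.60 for Lyz1 and 3.25 for Alox15, which was below the filter in iWAT. For the remaining genes it was 1.52 for Mylk and -2.25 for Otop1.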

How the results depend on the processing

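The 243 genes higher and 169 lower became 2181 and 1830 with array weights, 127 and 75 with no filter on low values, and 0 and 0 with only the 6 libraries compared in the fit. Leaving out 1 of the 6 libraries gave 0 to 349 higher and 0 to 283 lower, and leaving out irisin chow 3 gave 168 and 104. The calls in irisin mice, 1376, became 7398 with array weights and 263 to 1187 with 1 library left out. The diet by depot calls, 714, became 3900 with array weights, 473 with voom, and 334 to 1383 with 1 library left out. The diet by vector interaction called 0 genes under every alternative run. The other alternatives stayed within 1.5 times. The labels do not say whether the replicate numbers pair the libraries, and the main fits did not treat them as pairs. Same-numbered HFD and chow libraries deviated together at r = 0.07, 0.212 and 0.131 across genes, each the highest for its number. The replicate block gave 182 higher and 143 lower, 833 depot calls and 1367 calls in irisin mice. Of 83 called genes that the naming rule gave, 0 reversed under 19 alternatives, most of which cannot reverse a gene whose groups do not overlap. The cause of these shifts was not tested, other than that dropping libraries or the shared spread leaves fewer libraries. With 3 libraries a group, 2-fold changes were recovered in 46.0% of cases simulated without shifts shared across genes, and genes near 0.5 FPKM rest on few reads.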

Other observations

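Genes that were called in opposite directions in the depots (10 in all, chosen after their values were seen) include Scg3, a granin of secretory vesicles, which was at 2.12, 1.44 and 1.56 FPKM on HFD in iWAT, against 0.321, 0.281 and 0.272 FPKM on chow. Its effect was 1.47 in iWAT and -1.34 in eWAT. Kcnj15, a potassium channel gene, had effects of 1.12 in iWAT and -1.11 in eWAT, Akap12, a scaffold of protein kinase A, of 0.80 in iWAT (limma, adjusted p = 0.0569 without iWAT chow 3) and -0.72 in eWAT, and Bicdl1, an adaptor of dynein, of 1.26 in iWAT and -0.60 in eWAT. Klf14, an imprinted transcription factor gene near Mest, was at 3.16, 5.34 and 6.38 FPKM on HFD, against 0.826, 2.17 and 0.244 FPKM on chow, and was not called (1.93 ± 0.59, limma, adjusted p = 0.103). Foxp3, the factor of regulatory T cells, was at 2.27, 0.162 and 0.187 FPKM on HFD, against 0.0963, 0.104 and 0.109 FPKM on chow, below the filter. Of 45 pathway lists, 16 had fewer than 2 called genes and no common side, with medians from -0.32 to 0.46.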
